A study of Mus musculus with 20 samples.

Results

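Blood taken 24 h after x-ray exposure was compared between mice of 24 months and mice of 2 months, which makes 10 of the 20 samples of the series. Both groups compared here were female C57BL/6J mice that had received 4 Gy of x-rays, called irradiated below: 5 young (2 months) and 5 old (24 months). The other 10 samples, 5 young and 5 old mice of the same sex and strain with no dose, serve only to show how the age difference looked without irradiation. Mice were killed 24 h after the dose and bled by cardiac puncture, and the blood went into PAXgene, a solution that lyses whole blood and stabilizes its RNA. Labelled copies made from 0.5 ug of RNA with the dye Cy3 were hybridised to 1-colour Agilent mouse arrays. The members of the comparison are the 16547 genes measured by probes other than controls, 1 probe per gene, and the question is how age changes the state of blood after a radiation dose. The series' design text says that 5 independent experiments were done at each age. Nothing says that samples sharing a number share an experiment, and the p-values measure only the spread between these samples.

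Whole blood RNA comes from reticulocytes, platelets, neutrophils, monocytes and lymphocytes together. Ionising radiation damages DNA, activates the transcription factor p53 and kills lymphocytes within hours, B cells most readily. DNA that reaches the cytosol can start type I interferon signalling, which switches on antiviral genes through a short promoter element. Ageing in mice shifts T cells from naive towards memory and exhausted states, which carry inhibitory receptors such as PD-1. In such bulk samples, fewer cells of a type and less RNA per cell cannot be told apart, and a marker level is not a cell count.

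Each level below is a log2 intensity minus the array's own 75th percentile, and differences are old minus young, ± standard error. Old irradiated replicate 5, called the dim array, had a 75th percentile of only 19.2 intensity units, against 93.0 to 230 for the other 19. The scanner software marked 33.3% of its spots as well above background, and 48.2% to 57.9% of those on other arrays. Young irradiated replicate 4 and old irradiated replicate 4 carried liver transcripts: the mean level of 28 hepatocyte genes was 7.21 and 3.31 there, against -3.82 to 0.85 on the other 8 irradiated arrays. The 5 heart muscle genes averaged 3.77 on old irradiated replicate 3 and at most -0.70 on the other 9. Young irradiated arrays lay on slides 2 and 3 and old irradiated arrays on slides 4 and 5, so no slide held both groups.

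In the fit across all 20 arrays, 86 of 16547 genes (0.52%) differed between old and young irradiated blood at an adjusted p under 0.05 (limma, Benjamini-Hochberg over all genes), 55 of them higher (0.332%) and 31 lower (0.187%) in old. Most were large: 52 of the higher (0.314% of all genes) and 26 of the lower genes (0.157%) differed at least 2-fold. Without the dim array the counts were 115 in all (0.695%), 78 higher (0.471%) and 37 lower (0.224%), and 76 of the 86 were called again. The median difference over all genes was 0.01. The age difference without irradiation was called for 1639 genes (9.91%), 1094 higher (6.61%) and 545 lower (3.29%). In 306 genes (1.85%) the irradiated groups did not overlap. The largest differences named below were picked among such genes, so their separation follows from the choice. An unadjusted p under 0.05 was found for 12.7% of all genes, 7.57% higher and 5.08% lower, which is the share to set beside each such count below. The gene lists used below were chosen with earlier results of these data known. Their counts beside such shares are descriptions and not tests of a list.

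How many genes pass depends strongly on the processing, and this holds for every gene named below. Fitted to the 10 irradiated arrays alone, only Klk1b27, not well above background on any young irradiated array, passed (adjusted p = 0.0425, limma; named after its values were seen) although 919 genes had an unadjusted p under 0.05, and Gzmk had an adjusted p of 0.0674. The fit to 20 arrays borrows its spread from all 4 groups, and the median SD of a gene was 0.407 in young irradiated and 0.676 in old irradiated arrays (0.425 without the dim array), against 0.360 and 0.243 in the unirradiated groups. With normexp background correction only Gzmk passed. With slide as a fixed block no gene passed (191 at an unadjusted p under 0.05), and with slide as a random block 2805 did. Without the 5 arrays of the series with a hepatocyte level above 2, 15 genes passed, 13 of them among the 86. These arrays were young unirradiated replicates 1, 2 and 4 and replicate 4 of both irradiated groups. Without these 5 arrays and the dim array, 65 genes passed, 40 of them among the 86. Leaving out 1 irradiated array gave 28 genes without young replicate 3, 32 without young replicate 1, 43 without young replicate 2 or old replicate 4, 52 without young replicate 5, and 65 to 126 without each of the others. The sign was steadier: all members of the 86 that were tested kept it in each of these settings, except under the fixed slide block, under which 84 did. The fit to 10 arrays leaves every difference as it was and so cannot test the sign, and the 86 had been chosen for large differences relative to their spread.

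**Figure D1:**
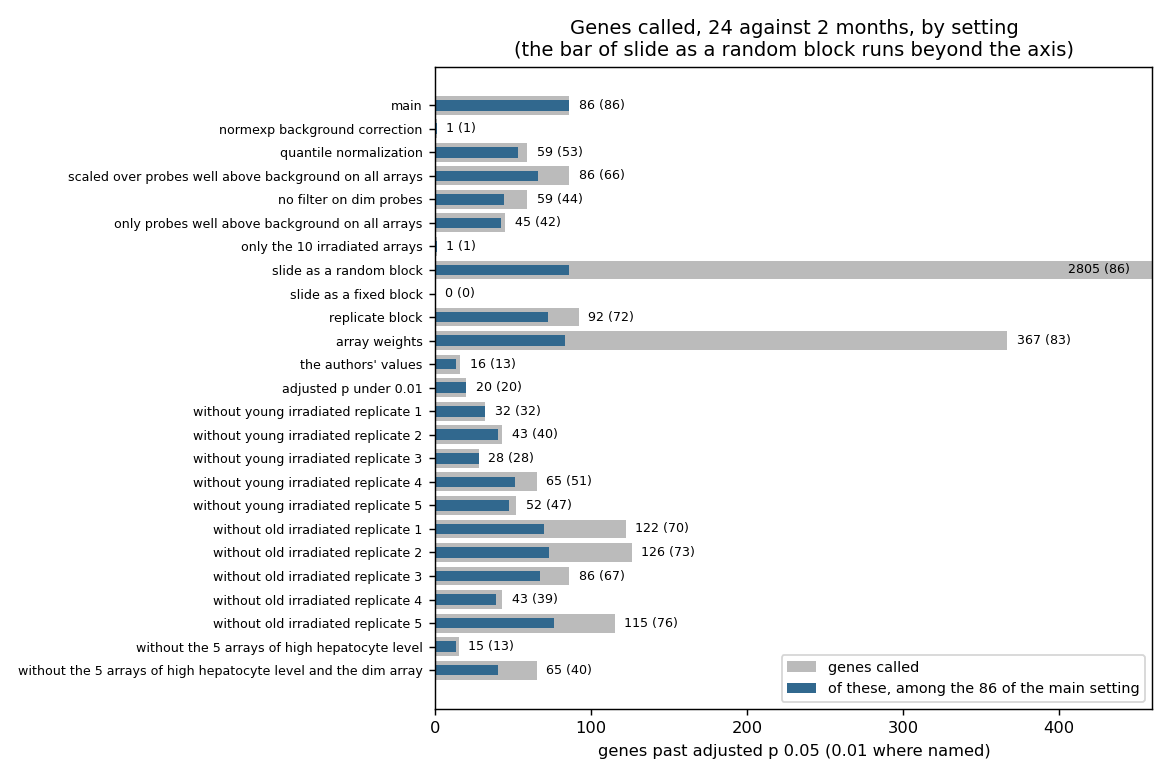
Number of genes called between old and young irradiated blood (horizontal axis) under the main setting and each alternative (rows). Grey bars count all genes called, blue bars those among the 86 of the main setting, and both counts stand beside the bars; the counts run from 0 to 2805, and the bar of 2805, with slide as a random block, runs beyond the end of the axis.

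Of the 55 genes higher in old irradiated blood, 4 belong to the list of effector, memory and exhausted T cells, among them the gene with the lowest p of the comparison. This is Gzmk, which encodes granzyme K, a protease stored by memory T cells. It was at -1.77, -3.71, -2.21, -4.64 and -1.06 on young irradiated arrays 1 to 5. On old irradiated arrays 1 to 5 it was at 4.07, 1.52, 2.21, 5.21 and 3.16. Every old array stood above every young one, with a gap of over 2 log2 units between the groups. The difference was 5.91 ± 0.66 (adjusted p = 0.000487, limma), a 60.2-fold higher mean, and it was 5.93 without the dim array. The probe lies on chromosome 13, 113961816 to 113961875 (mm9), and the gene's other, dimmer probe gave 2.21. In unirradiated blood the difference was 5.45 ± 0.66, and the interaction of age and irradiation, the age difference after irradiation minus that without it, was not called (0.46 ± 0.93, adjusted p = 0.84).

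Pdcd1 encodes PD-1, an inhibitory receptor of exhausted T cells. Its levels were -2.31, -2.51, -2.53, -3.26 and -1.87 on the young irradiated arrays and 0.98, -0.21, -0.17, 5.04 and 1.0 on the old. The groups did not overlap, but old replicate 4 stood far above the other old arrays. The difference was 3.83 ± 0.69 (adjusted p = 0.0149, limma), beside 3.22 ± 0.69 without irradiation. Lag3, an inhibitory receptor that binds MHC class II, was at -3.77, -3.84, -4.19, -4.46 and -3.41 in young and at -0.36, -2.18, -1.49, 3.76 and -0.81 in old irradiated blood. Here too the groups were separate and old replicate 4 was highest, while only 1 young array was well above background. The difference was 3.72 ± 0.74 (adjusted p = 0.0273).

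Ctla4, which competes with the costimulatory receptor CD28 and marks regulatory and activated T cells, was at -4.14, -3.59, -4.01, -4.79 and -4.83 in young and at -2.77, -0.70, -0.24, -1.47 and -3.53 in old irradiated blood. The lowest old array, the dim one, lay just above the highest young array. The difference was 2.53 ± 0.53 (adjusted p = 0.0357, limma) and 2.98 without the dim array.

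These 4 were the members called among 29 tested genes of effector, memory and exhausted T cells, all higher (0.332% of all genes were), with a list median of 0.69 against 0.01 over all genes. The list is not uniform: 17 members had a positive and 12 a negative difference. Several well known members did not pass, among them Tigit (2.51 ± 0.56, adjusted p = 0.051), Ccl5 (1.63, adjusted p = 0.083), Tox (1.92, adjusted p = 0.21), Eomes (1.07), Gzmb (-0.43) and Gzma (-0.43). Without old replicate 4 the list median was -0.01 with 3 members called, and without the 5 arrays of high hepatocyte level it was -0.20 with 3 called. Leaving out young replicate 1, 2, 3 or 4 left 2 members called. In unirradiated blood 7 members were called higher (6.61% of all genes), and no member was called for the interaction.

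Of 23 tested general T cell genes, 1 was called. Cd8a, the alpha chain of the CD8 coreceptor, was at -1.17, -2.76, -1.21, -3.06 and -1.14 in young and at 2.24, 0.35, 0.68, 0.70 and 1.29 in old irradiated blood. All old arrays exceeded all young arrays. The difference was 2.92 ± 0.49 (adjusted p = 0.0094, limma) and its other probe gave 2.70. Without irradiation the 2 ages overlapped, from -0.64 to 1.42 in young and from 0.03 to 2.01 in old blood, with a difference of 0.44, but the interaction was not called (2.47 ± 0.70, adjusted p = 0.077). Cd8b1, the beta chain, followed with 2.33 ± 0.53 and just missed the threshold (adjusted p = 0.051), its group means being -0.12 in young and 2.21 in old irradiated blood against 2.49 and 2.62 without irradiation.

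The chains of the T cell receptor complex and Cd4 did not pass: Cd3e differed by 0.96, Cd3d by 0.25, Cd3g by 0.21 and Cd4 by 0.90. The call of Cd8a stands beside 0.332% of all genes called higher, and 5 of the 23 had an unadjusted p under 0.05, beside 12.7% of all genes. The mean level of the list was 0.37 to 1.78 on young and 0.87 to 2.93 on old irradiated arrays, so the groups overlapped. None of 19 naive T cell genes was called, although Igfbp4 (-2.06, adjusted p = 0.053, limma) and the chemokine receptor gene Ccr9 (-1.91, adjusted p = 0.052) came close. At an unadjusted p under 0.05, 5 of the 19 were lower and 1 higher, beside 5.08% and 7.57% of all genes.

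**Figure D2:**
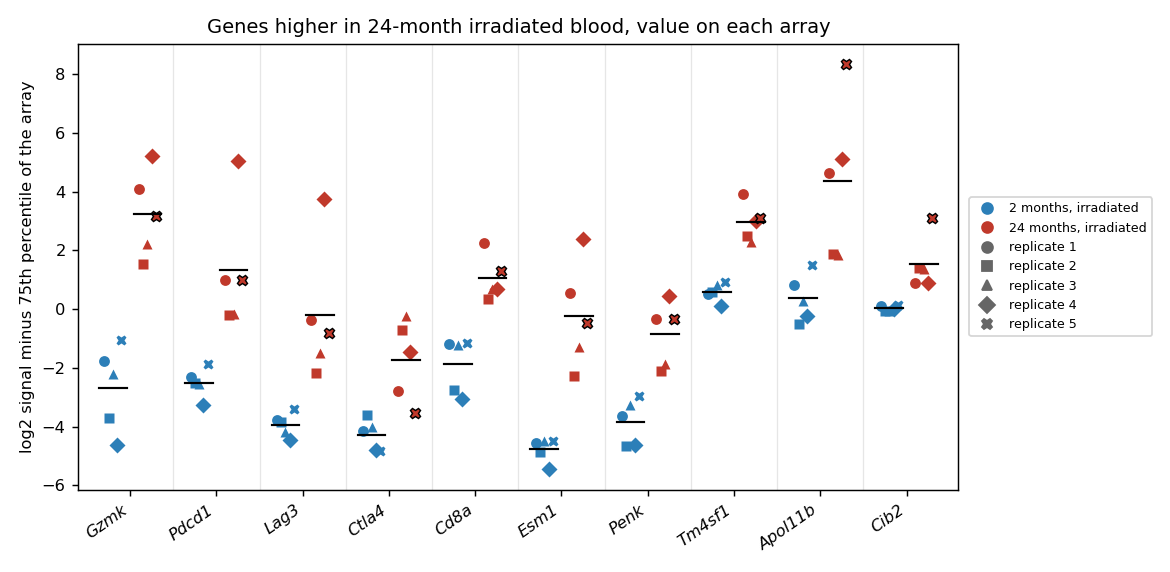
Level of 10 genes (horizontal axis) on each irradiated array, as log2 signal minus the array's 75th percentile (vertical axis); blue symbols are young, red symbols old mice, the symbol shape gives the replicate, the bar is the group mean, and the outlined cross is the dim array. In all 10 genes every old array lies above every young one, from a narrow gap in Ctla4 to the wide one in Gzmk. In Ctla4 the dim array reads no higher than genes near background on it. All but Ctla4 met a rule of choice that asked for this separation. Old replicate 4 is highest in Gzmk, Pdcd1, Lag3, Esm1 and Penk and the dim array in Apol11b and Cib2.

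Other genes higher in old irradiated blood have no single role. Esm1, which encodes the proteoglycan endocan, was at -4.54, -4.87, -4.47, -5.46 and -4.47 in young and at 0.56, -2.28, -1.29, 2.38 and -0.47 in old irradiated blood, with no overlap. Its difference was 4.54 ± 0.65 (adjusted p = 0.00251, limma), beside 3.99 without irradiation. Penk, the precursor of the enkephalin peptides, was at -3.63, -4.68, -3.25, -4.62 and -2.96 in young and at -0.35, -2.12, -1.86, 0.44 and -0.32 in old. Every old array was higher, by 2.98 ± 0.42 in the mean (adjusted p = 0.00251), and the difference was 2.26 without irradiation. Tm4sf1, a tetraspanin-like membrane protein gene, ran from 0.12 to 0.91 in young and from 2.28 to 3.93 in old, a difference of 2.37 ± 0.32 (adjusted p = 0.00248) beside 2.97 without irradiation. For these genes, as for Gzmk and Pdcd1, the age difference was called in unirradiated blood as well. That was so for 20 of the 55 genes called higher (36.4%), beside 6.61% of all genes called higher without irradiation.

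The apolipoprotein L genes Apol11b and Apol10b were also higher, and here the dim array took part. Apol11b was at 0.84, -0.51, 0.29, -0.23 and 1.49 in young and at 4.64, 1.89, 1.84, 5.10 and 8.34 in old irradiated blood. The highest value belonged to the dim array, and the groups were separate with or without it. The difference was 3.98 ± 0.88 on all arrays and 2.99 without the dim one (adjusted p = 0.0458 and 0.0367, limma). Apol10b differed by 3.48 ± 0.65 and by 2.82 without the dim array. Cib2, which encodes a calcium-binding protein, and Ccne1, which encodes cyclin E1 of the G1 to S transition, showed the same order: Cib2 lay between -0.08 and 0.15 in young and at 0.90, 1.41, 1.37, 0.89 and 3.10 in old, and Ccne1 between -0.79 and -0.38 in young and at 0.09, 0.55, 0.31, 0.79 and 2.38 in old. Their differences were 1.5 ± 0.30 and 1.37 ± 0.30, and 1.11 and 0.98 without the dim array. Sdcbp2, a gene of the syntenin family, differed by 2.17 ± 0.45, with old replicate 4 at 2.76 and the other old arrays between -0.39 and 0.52.

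Among genes called through their lists, Derl3, a gene of the degradation machinery of the endoplasmic reticulum that is abundant in secretory cells such as plasma cells, was 2.14 ± 0.46 higher (adjusted p = 0.0404, limma). Its levels were -3.17, -2.61, -3.17, -1.99 and -3.23 in young and -1.50, -0.15, 0.74, -0.03 and -2.52 in old, so the groups overlapped through the dim array. Jchain, the joining chain of secreted IgM and IgA, missed the threshold at 2.31 ± 0.59 (adjusted p = 0.0901). Ccl8, a chemokine gene, was 2.42 ± 0.51 higher (adjusted p = 0.0357), but only 1 young array was well above background.

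The genes lower in old irradiated blood were to a large part interferon-stimulated: 14 of the 31. Of 65 tested interferon-stimulated genes, 14 were lower and none higher, beside 0.187% lower over all genes, and 35 were lower at an unadjusted p under 0.05 against 1 higher, beside 5.08% and 7.57% of all genes. The list median was -0.70, and 52 members had a negative difference. Without the dim array 17 were lower and none higher, with a median of -0.71. In 15 members no old array reached the lowest young one, beside 0.737% of all genes. The count was 8 without a filter on dim probes, 5 without young replicate 3 or old replicate 4, 6 without young replicate 1 or 5, 8 without young replicate 2, 1 without the 5 arrays of high hepatocyte level and 0 in the fit to 10 arrays (limma; 919 genes in all had an unadjusted p under 0.05 there), while the list median stayed between -0.93 and -0.64 over all settings. Without the 5 arrays of high hepatocyte level and the dim array, the count was 6.

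Short stretches of the promoters of 5 of these genes, and of Ifi207, a gene of the same chromosome 1 cluster as Ifi205 that was called lower but is not in the list, are shown because they hold the letters of the interferon-stimulated response element, through which type I interferon switches on genes. The pattern searched was GAAA, any 2 bases and GAAA again, on both strands (TTTC, any 2 bases and TTTC when read on the other), in RefSeq windows from 250 bases before to 50 after each start site (GRCm38.p6). Capitals mark the match; each sequence is written 5′ to 3′ in the direction of the gene, 20 bases to either side of the match where these lie before the start site.
Ifit3: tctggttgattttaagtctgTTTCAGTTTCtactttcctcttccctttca
Oas1a: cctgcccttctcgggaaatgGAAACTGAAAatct
Stat2: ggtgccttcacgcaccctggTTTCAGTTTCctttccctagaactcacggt
Bst2: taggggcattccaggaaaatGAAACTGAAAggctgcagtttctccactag
Ifi205: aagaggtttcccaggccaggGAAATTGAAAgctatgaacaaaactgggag
Ifi207: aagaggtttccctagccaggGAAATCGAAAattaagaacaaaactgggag
They lie at chr19:34583387-34583436 (plus strand), chr5:120907526-120907559 (minus), chr10:128270256-128270305 (plus), chr8:71537567-71537616 (minus), chr1:174031860-174031909 (minus) and chr1:173741821-173741870 (minus). The windows of Ifit3, Oas1a, Bst2 and Ifi205 hold 2 matches, of which 1 is in capitals. In Oas1a and Bst2 the other match overlaps it and begins in the small letters printed just before it. In the order printed, the match ended 112, 4, 212, 114, 124 and 31 bases before the start site. The windows of Ifi205 and Ifi207 share most of their letters.

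The letters stood in the windows of 7 of the 8 called interferon-stimulated genes that have one in the table. Of the tested interferon-stimulated genes that were not called, 20 of 42 (47.6%) held them, and of all tested genes 422 of 10835 (3.89%). Among all 32851 windows the share was 3.44%. A match says only that these letters stand there, and genes with it differed in their age difference.

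The Ifi200 cluster encodes interferon-inducible proteins, several of which bind DNA. Ifi204, a member of this cluster, was at 5.47, 4.97, 5.25, 5.16 and 5.73 on young irradiated arrays 1 to 5 and at 3.91, 4.30, 4.24, 3.43 and 3.18 on the old. The groups did not overlap, and replicates 4 and 5 were the lowest of the old. The difference was -1.50 ± 0.23 (adjusted p = 0.00392, limma), and a second probe gave -1.74. Ifi205, of the same cluster, was at 2.68, 2.87, 2.65, 2.54 and 2.57 in young and at 0.99, 1.90, 1.60, 0.35 and -0.65 in old. The young arrays were within a narrow range and all old arrays lay below it, the dim array lowest. The difference was -1.82 ± 0.34 (adjusted p = 0.0184) and -1.45 without the dim array. Ifi207, which is outside the list, differed by -1.70 ± 0.29 and its second probe by -0.78. Genes of this cluster are similar in sequence, and probes may pick up more than 1 of them.

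Among the RNA sensors, Ifih1, which encodes MDA5, a receptor for long double-stranded RNA, was at 2.46, 2.12, 2.35, 2.17 and 2.56 in young and at 1.13, 1.15, 1.42, 0.85 and 1.04 in old irradiated blood. The groups stood apart and the dim array lay among the other old arrays. The difference was -1.21 ± 0.23 (adjusted p = 0.0201, limma), and -1.19 without the dim array. Dhx58, which encodes the related helicase LGP2, differed by -1.21 ± 0.23 and by -0.99 without the dim array. Ddx58, which encodes RIG-I, did not pass (-1.02, adjusted p = 0.17). Eif2ak2, the RNA-activated kinase PKR that halts translation, ran from 0.66 to 0.90 in young and was at -0.31, -0.30, 0.05, -1.10 and -1.10 in old. No old array reached the young range, and the difference was -1.30 ± 0.22 (adjusted p = 0.0094). Zbp1, a sensor of Z-form nucleic acids, differed by -0.86 ± 0.18 (adjusted p = 0.042, and 0.0501 without the dim array).

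Among effectors, Oas1a, which makes the 2'-5' oligoadenylates that activate RNase L, was at 5.21, 5.70, 5.09, 5.34 and 5.45 in young and at 4.04, 4.42, 4.35, 3.86 and 3.87 in old irradiated blood. The lowest young array stood above the highest old array. The difference was -1.25 ± 0.21 (adjusted p = 0.00871, limma), and a second probe gave -1.21. Ifit3, whose protein binds other IFIT proteins and which has the near-identical copy Ifit3b, was at 5.81, 4.71, 5.50, 5.19 and 6.27 in young and at 4.00, 3.64, 4.96, 2.92 and 2.70 in old. Old replicate 3 lay above young replicate 2, so the groups overlapped. The difference was -1.85 ± 0.36 (adjusted p = 0.0246), and the probe assigned to Ifit3b gave -1.67 (adjusted p = 0.053). Bst2, or tetherin, which holds enveloped viruses on the cell surface, differed by -1.04 ± 0.23, from 3.68 to 4.43 in young against 2.43 to 3.40 in old. Mx1 and Mx2, antiviral GTPase genes that the annotation lists as transcribed pseudogenes, differed by -1.53 ± 0.33 and -1.91 ± 0.35. Parp12, an ADP-ribosyltransferase gene, differed by -1.48 ± 0.22, with all young arrays between -0.15 and 0.30 and all old arrays between -1.95 and -0.95, and Parp9, of the same family, by -0.82 ± 0.16.

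Among the regulators, Stat2, a transcription factor gene of the type I interferon response, was at 3.31, 3.51, 3.41, 3.23 and 3.42 in young and at 2.27, 2.31, 3.04, 2.21 and 0.92 in old irradiated blood. All old arrays lay below the young range and the dim array lay lowest, so the difference was -1.22 ± 0.26 on all arrays and -0.92 without it (adjusted p = 0.0357 and 0.00757, limma). Irf9, another transcription factor gene of the interferon response, did not pass (-0.49 ± 0.19). Irf7, which amplifies interferon production, differed by 0.15, with the dim array at 5.28 and the other irradiated arrays of either age between 1.78 and 3.60. Isg15, a ubiquitin-like modifier that is among the most strongly interferon-induced genes, went from 0.70 to -0.23 when the dim array, at 10.36 against 4.85 to 6.74 on the other irradiated arrays, was left out. Neither value passed. The largest positive differences of the list, Rsad2 (1.21), Slfn5 (1.14) and Isg20 (1.0), were 0.30, 0.63 and 0.31 without the dim array and did not pass either way.

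**Figure D3:**
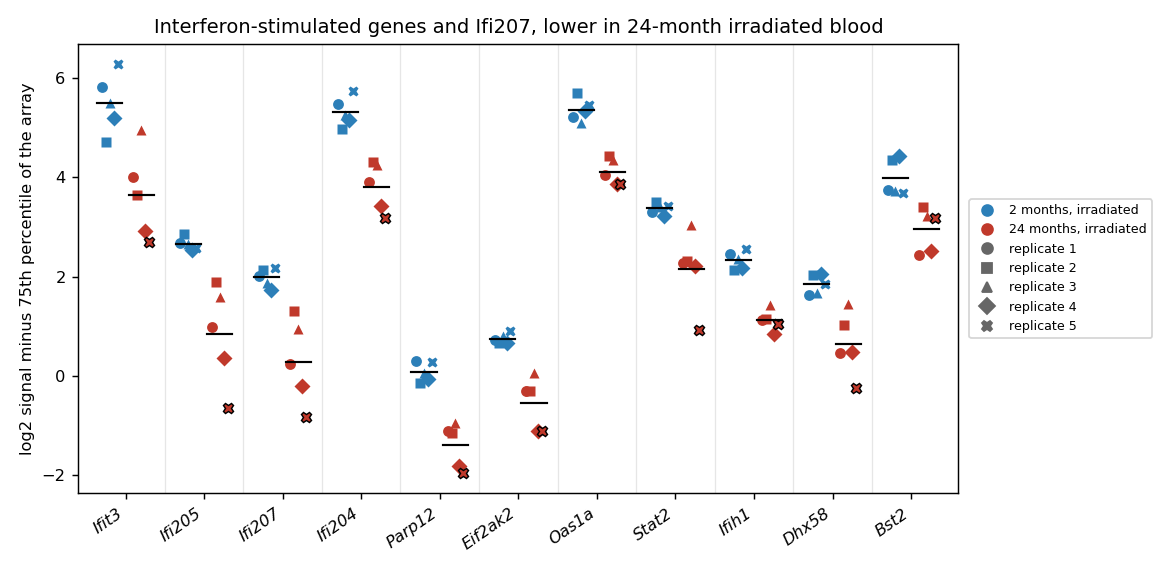
Level of 10 listed interferon-stimulated genes and of Ifi207, all called lower in old irradiated blood (horizontal axis), on each irradiated array, as log2 signal minus the array's 75th percentile (vertical axis); blue symbols are young, red symbols old mice, shapes give the replicate, bars the group means, and the outlined cross is the dim array. Every old array lies below every young one except in Ifit3. All but Ifit3 and Bst2 met a rule of choice that asked for this separation. The dim array is lowest in all but Oas1a, Ifih1 and Bst2, though in Eif2ak2 it is nearly level with old replicate 4.

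The order of the ages was the other way round without irradiation. The mean level of the 65 interferon-stimulated genes was 1.05 to 1.29 on young and 1.53 to 1.83 on old unirradiated arrays, and 2.68 to 3.27 on young and 2.04 to 2.52 on old irradiated arrays. In neither case did the ages overlap, and all irradiated arrays lay above all unirradiated ones. In unirradiated blood 14 members were higher in old (6.61% of all genes) and none lower, with a median of 0.46. The interaction was called for 21 members, all lower (1.4% of all genes, and 1.75% in either direction). Young unirradiated replicates 1, 2 and 4 were among the 5 arrays of high hepatocyte level. Without those 5, the calls over all genes fell from 1639 to 80 without irradiation and from 289 to 6 for the interaction. With the dim array left out as well, they were 546 and 44. Young unirradiated arrays lay on slides 1 and 2 and old unirradiated arrays on slides 3 and 4, so no slide held both. Ifi204 stood at 2.77, 2.89, 2.93, 2.61 and 2.99 on young and at 3.78, 3.87, 4.25, 3.44 and 3.48 on old unirradiated arrays, so the old levels were alike with and without irradiation, at 3.43 to 4.30 for the 4 irradiated arrays other than the dim one, while the young means were 5.32 with and 2.84 without irradiation. Its interaction was -2.43 ± 0.32 (adjusted p = 0.0011, limma). That of Ifi205 was -3.30 ± 0.48 and that of Oas1a -2.24 ± 0.30.

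Of 35 tested monocyte and macrophage genes, 2 were called lower after irradiation, beside 0.187% of all genes. Ccr2, the chemokine receptor that marks classical monocytes, was at 1.97, 1.95, 2.10, 1.40 and 1.74 in young and at 1.43, 0.37, 0.90, 0.11 and -0.53 in old irradiated blood. The groups overlapped narrowly, through young replicate 4 and old replicate 1. The difference was -1.38 ± 0.28 (adjusted p = 0.0274, limma), against 1.45 without irradiation, and the interaction was -2.83 ± 0.39 (adjusted p = 0.0014). With slide as a fixed block the difference after irradiation was 0.0051 (adjusted p = 0.9997). Fcgr1, the high-affinity receptor for IgG, was at -0.13, -0.28, -0.23, -0.29 and 0.08 in young and at -1.55, -0.74, -1.13, -1.59 and -1.06 in old irradiated blood. Here no array overlapped, and the difference was -1.04 ± 0.23 (adjusted p = 0.0443) after irradiation and 1.60 without it, with an interaction of -2.64 ± 0.32.

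No other member was called, and the list median was -0.36. Both calls were lost without the 5 arrays of high hepatocyte level, without old replicate 4 and without each young irradiated replicate other than 4. In unirradiated blood 22 members were higher in old (6.61% of all genes were), with a median of 1.08, and the interaction was called for 14, all negative (1.4% of all genes). The limit given above holds for these counts too: without the 5 arrays of high hepatocyte level, 80 and 6 genes in all were called. Csf1r, the receptor that sustains the lineage, differed by -0.26 after irradiation and by 1.11 without it. Ms4a6c and Ms4a6d, membrane protein genes of monocytes, differed by -0.85 and -0.96 (adjusted p = 0.31 and 0.053) after irradiation and had interactions of -3.08 and -3.05. The mean level of the monocyte list was 2.91 to 3.09 on young irradiated arrays and 2.67, 3.28, 2.71, 2.43 and 2.57 on old ones, old replicate 2 being the one above the young range.

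**Figure D4:**
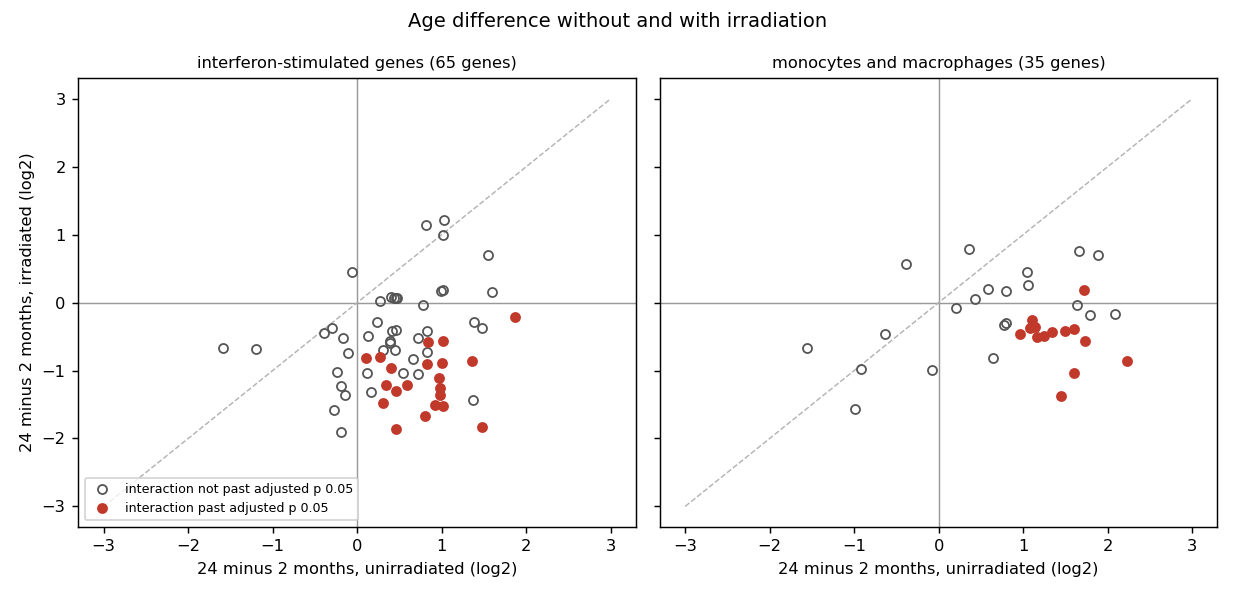
Difference between old and young blood in irradiated (vertical axis) against unirradiated mice (horizontal axis), in log2 units, for each of 65 interferon-stimulated genes (left) and 35 monocyte and macrophage genes (right); red points have an interaction past an adjusted p of 0.05 and the dashed line marks equal differences. The 21 and 14 red points all lie below the line.

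Other genes called lower belong to several roles. Trpm6, a magnesium channel and kinase gene, was at -1.73, -2.24, -1.61, -2.88 and -1.89 in young irradiated blood and not well above background on any old irradiated array. Against the lowest signals well above background on those arrays, it was at least 2.91-fold lower (fitted difference -2.49 ± 0.46, adjusted p = 0.0184, limma). Klrb1, a lectin-like receptor gene of natural killer cells, was at 1.79, 1.45, 1.83, 1.44 and 1.74 in young and at 1.18, -0.29, 0.89, 0.16 and -1.10 in old. The groups were separate and the difference was -1.48 ± 0.32, but a second, much dimmer probe gave 0.38. Bzw2, a gene linked to control of translation starts, differed by -1.27 ± 0.25 and by -0.44 at a second probe. Of the 31 genes called lower, 1 (3.23%) was called lower in unirradiated blood as well, near the 3.29% of all genes.

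Genes of the radiation response mostly overlapped between the ages. No overlap was seen for 1 of 42 p53 targets (old lower, beside 0.737% of all genes) and 1 of 43 DNA repair genes (old higher, beside 1.11%). Of 42 tested p53 targets none was called (limma), with a median of -0.01. An unadjusted p under 0.05 was found for 6, near the 12.7% of all genes. Of these 6, 5 were lower and 1 higher, beside 5.08% and 7.57% of all genes. The mean level of these targets was 1.15 to 1.36 on young and 1.13 to 1.38 on old irradiated arrays, against 0.07 to 0.31 on all unirradiated arrays. Cdkn1a, the p21 inhibitor of the cell cycle, was at 1.69, 2.64, 1.90, 2.73 and 1.40 in young and at 1.10, 2.22, 1.68, 1.89 and 2.90 in old irradiated blood. The groups overlapped throughout, and the difference was -0.11 with a 95% interval from -1.01 to 0.79. For Mdm2, the ubiquitin ligase that degrades p53, the difference was 0.41 (interval -0.26 to 1.09), and for Bax, a pore-former of apoptosis, 0.21 (-0.21 to 0.63). Phlda3, an inhibitor of Akt, differed by -0.04 (-0.48 to 0.40) after irradiation and by 1.63 without it, and its interaction was called (-1.67 ± 0.30, adjusted p = 0.0098). Of the 42 targets, 2 were called for the interaction, both lower (1.4% of all genes). None of 43 DNA repair genes was called (4 at an unadjusted p under 0.05).

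B cell genes varied more within the old group than between the ages. Their mean level was 0.89, 1.75, 1.11, 1.2 and 0.59 on young irradiated arrays 1 to 5 and 0.61, 2.92, 2.75, 0.38 and 0.65 on old ones, against 2.40 to 3.60 on all unirradiated arrays. Old replicates 2 and 3 lay within the unirradiated range and the other 8 irradiated arrays below it. None of 27 B cell genes was called (limma; 2 at an unadjusted p under 0.05). Cd79a, a chain of the B cell receptor complex, was at 2.50, 5.80, 5.67, 2.84 and 2.31 in old irradiated blood and ran from 2.03 to 4.19 in young. MHC class II genes took the same pattern, at 1.68, 3.78, 3.53, 1.67 and 1.41 in old.

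No member was called among 32 genes of natural killer cells, 35 of mature neutrophils or 39 of platelets (limma). Their medians were -0.50, 0.02 and 0.28, and 10, 6 and 2 had an unadjusted p under 0.05, beside 12.7% of all genes. Of the 10 natural killer cell genes, 8 were lower and 2 higher, beside 5.08% and 7.57% of all genes. Among 47 erythroid genes, 20 had an unadjusted p under 0.05, all higher (7.57% of all genes were), and none was called. Their median was 1.02 on all arrays and 0.35 without the dim array, whose mean erythroid level was 7.12 against 2.60 to 4.24 on the other irradiated arrays. Ribosomal protein genes went the same way: 52 of 53 differences were positive and none was called (16 at an unadjusted p under 0.05), with a median of 0.40, and of 0.20 without the dim array.

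**Figure D5:**
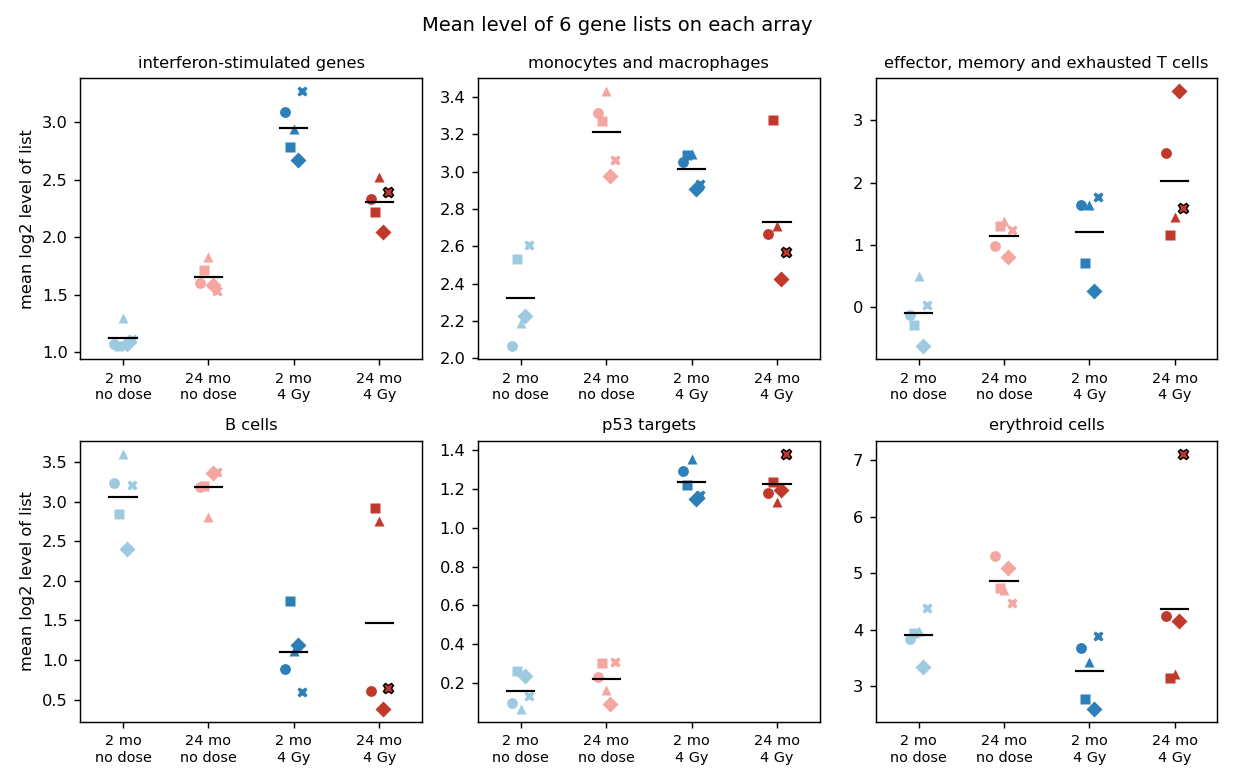
Mean log2 level of 6 gene lists (vertical axis, relative to each array's 75th percentile) on every array of the 4 groups (horizontal axis); shapes give the replicate, bars the group means, and the outlined cross the dim array. Interferon-stimulated genes show opposite orders of the ages with and without the dose, p53 targets lie higher with the dose, from 1.13 to 1.38 over both ages, and B cell levels of old irradiated blood split between 2 high and 3 low arrays.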

How the data were processed

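The authors read the 20 1-colour scans with Feature Extraction 12.0.2 (Agilent), per the submitters' processing notes. The deposited processed signal is an intensity with spatial and multiplicative detrending on, local background correction off and surrogate values for dim spots, per the file headers. It is not normalized between arrays. The authors' deposited log2 values cover 14406 probes with values on at least 2 arrays of each group, of which 14382 were matched. Set against the log2 scanner signal of the array they belong to, their r was 0.988 at the lowest, so scale and direction were clear. Their centring (median offset -0.91 to 1.64) is unknown, and columns had medians of 5.19 to 5.77.

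There were 44397 spots on an array, and 43020 were not controls, for 39429 probes; none was saturated. Outlier spots (77 to 237) were left out and spots of a probe averaged. Log2 signals were taken minus each array's 75th percentile. A probe was kept if some group had it well above background on 4 or more of its 5 arrays (21096 probes), and each gene was represented by its brightest such probe (16547 genes, 30 missing cells). Probes were named through RefSeq by accession (29109), symbol (2968) or synonym (138), otherwise by the file's name (7214). Probe coordinates are mm9. Some transcripts with clone or transcript names only are not named here, and 1 gene is not reported here.

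A single model with 4 group means used every array, through lmFit and then eBayes (limma 3.58.1, R 4.3.3). All adjusted p-values are limma's with Benjamini-Hochberg over all genes, called under 0.05. Lower bounds of fold set the brighter group's mean against the lowest signal well above background on each array of the dimmer group. The fit was tested on simulated data with the same spread in all groups and no slide effect, so that run does not cover these features of the arrays. It called 34% of simulated differences of 1 log2 unit and 80% of those of 2. Promoter letters were counted with Python 3.11.15.

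The members and 35 gene lists were chosen with earlier results of these data known, and lists are described by counts and medians without a test. Lists share genes: 14 of 30 effector T cell genes stand in another list. Named genes are the 12 largest increases and 12 largest decreases among genes called with and without the dim array with separate groups and a signal clear of background on each array of the brighter group (clone, locus, predicted and RIKEN names and pseudogenes left out), a set of sentinel genes, up to 4 called members per list and the 5 largest interactions either way; other list members were named after their values were seen. Alternatives were normexp (offset 50), quantile and other scaling, other filters, slide and replicate blocks, array weights, the 10 irradiated arrays alone, the authors' values, an adjusted p of 0.01 and leaving out each array; fits without 5 arrays of high hepatocyte level were added after seeing the data. Precision is limited by 5 arrays per group.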

Additional observations from a re-analysis of the deposited data

Results flagged for a closer look

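In 134 groups of 5 arrays (32 called genes and 35 list levels, young and old irradiated), 7 held an array whose gap to its neighbour exceeded Dixon's 95% critical value of 0.71; chance gives about 1 in 20. Old irradiated replicate 4 stood apart in Pdcd1 (5.04, next 1.0) and Sdcbp2 (2.76, next 0.52). The dim array stood apart in Cib2 (3.10, next 1.41), in the erythroid level (7.12, next 4.24) and in the DNA repair level (-0.88, next -0.33). Young irradiated replicate 4, the array with the highest hepatocyte level of its group, stood apart in the ribosomal protein level (7.39, next 7.64) and the oxidative phosphorylation level (4.48, next 4.07).

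The interaction was called by limma for 22 named genes, beside 289 of all genes (1.75%). The 5 largest called interactions either way were named for that reason, so their passing follows from the choice. Without the 5 arrays of high hepatocyte level, 6 genes in all were called for the interaction, and 44 without these and the dim array. Among interferon-stimulated genes and Ifi207 the interaction was -3.30 for Ifi205, -2.77 for Ifi207, -2.43 for Ifi204, -2.31 for Ifit3, -2.24 for Oas1a, -1.79 for Parp12, -1.79 for Dhx58, -1.76 for Eif2ak2 and -1.56 for Ifih1. Among monocyte genes it was -2.83 for Ccr2, -2.64 for Fcgr1, -1.37 for Csf1r, -3.14 for Ms4a4a, -3.08 for Ms4a6c and -3.05 for Ms4a6d. It was -1.67 for the p53 target Phlda3 and -2.98 for the cytokine Il6. The largest positive interactions were those of Dynap (5.0), Slc39a12 (3.93), Lrrc75b (3.85), Arnt2 (3.80) and Adamts9 (3.75), genes whose probes were well above background on at most 1 young and 3 old irradiated arrays. Lrrc75b, of these the one called after irradiation, was not well above background on any young irradiated array and was at least 1.97-fold higher in old (fitted adjusted p = 0.0458, limma), and it missed the threshold without the dim array (adjusted p = 0.0649).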

How the results depend on the processing

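The number of genes called moved with nearly every choice, and the cause was not tested. Counts follow for all, higher and lower genes after irradiation, then for the age difference without irradiation and for the interaction, beside 86, 55, 31, 1639 and 289. They were 1, 1, 0, 33 and 3 with normexp; 0, 0, 0, 3 and 2 with slide as a fixed block (191 genes at an unadjusted p under 0.05 after irradiation, limma); and 2805, 1484, 1321, 6304 and 4674 with slide as a random block, whose estimated correlation was -0.20. Array weights gave 367, 215, 152, 7481 and 4361, the authors' values 16, 14, 2, 484 and 11, and an adjusted p under 0.01 gave 20, 15, 5, 418 and 36. Without the 5 arrays of high hepatocyte level they were 15, 12, 3, 80 and 6, and without these and the dim array 65, 38, 27, 546 and 44. The 10 irradiated arrays alone gave 1, 1 and 0. Probes above background on all arrays gave 45, 21 higher and 1024 without irradiation; no filter gave 14 lower, 850 and 52; quantile normalization gave 35 higher; the other scaling gave an interaction count of 164. With the replicate number as a block, 92 genes were called after irradiation, 72 of them among the 86, and 438 for the interaction. Under that block Sdcbp2 (adjusted p = 0.0708), Ctla4 (0.0569) and Lrrc75b (0.0819) missed the threshold and Ms4a6d passed it (0.0292), by limma. Deviations of same-numbered irradiated arrays correlated at 0.42, 0.17, 0.0047, 0.61 and 0.19, so 4 of 5 numbers but not all exceeded 0.1, and 4 of 10 arrays correlated best across ages with their own number. No label says what a number shares, and the arrays were fitted without the block.

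Leaving out 1 array gave 28 to 126 genes in all, 20 to 78 higher and 8 to 57 lower after irradiation, 695 to 3561 without irradiation and 69 to 848 for the interaction. The count without irradiation was 3561 without the dim array, although that array is not in the comparison and entered only through the shared spread. Of 32 named genes called after irradiation, 31 kept their sign in every alternative run and 0 passed the threshold in every one. The exception was Ccr2, at 0.0051 with slide as a fixed block. The 10 irradiated arrays alone, the replicate block and the adjusted p of 0.01 leave each difference as it was, so these runs cannot test the sign. The median of the effector T cell list turned negative with array weights (-0.08). No slide held irradiated arrays of both ages, so no value within a slide could be had. Signals near background, as for Lag3, Ctla4, Esm1 and Ccl8 in young blood, limit the size of those differences.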
